A study of Mus musculus with 12 samples.

Results

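The family of miR-148a, miR-148b and miR-152 is a group of microRNAs (miRNAs), short RNAs of about 22 bases that pair with messenger RNAs and lower their translation or stability. Its members were taken as all names on the array that start with mmu-miR-148a-, mmu-miR-148b- or mmu-miR-152, whichever arm of the precursor they come from. This gave 4 of the 696 mouse miRNA names: mmu-miR-148a-3p, mmu-miR-148b-3p and mmu-miR-152-3p, which were detected on all 12 arrays, and mmu-miR-148a-5p, which was detected on none. The 3 detected members are described in the retina and sclera of mice with form-deprivation myopia, in which an eye that sees only a blurred image grows too long.

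All animals were C57BL/6J mice. A frosted diffuser was worn over the right eye from postnatal day 24 to day 34 (10 days), and the untreated left eye of the same animals was the control, so that the control eyes belonged to animals that were themselves treated. The 4 groups were retina of control eyes, retina of myopic eyes, sclera of control eyes and sclera of myopic eyes, all taken at postnatal day 34, with 3 pools of tissue from 3 eyes each and 1 array per pool. The labels name a single mouse for each sample where the protocol describes pools. The pool numbers follow the mouse numbers of the labels, and the 4 arrays of a pool number lie on 1 slide. Each group held the same position on every slide, so position and group cannot be told apart. The retina and the sclera were dissected as bulk tissue after removal of the lens, so fewer cells of a type and less of a miRNA per cell cannot be told apart.

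The 3p members of the family share their seed, the stretch near the 5′ end of a miRNA that selects most of its targets, and so can bind largely the same messenger RNAs. Known targets include the transcript of DNA methyltransferase 1, the enzyme that maintains DNA methylation. The retina is a tissue of neurons, photoreceptors and glia, while the sclera is the collagen-rich coat of the eye, built by fibroblasts and remodelled when the eye elongates.

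The mature sequences are shown because the detected members differ by so few bases that the specificity of the probes matters for the results. The seed (bases 2 to 8, counted from the 5′ end) is in capitals, and the sequences are from RefSeq (GRCm38.p6), in which 528 of the 696 array names were matched.
mmu-miR-148a-3p: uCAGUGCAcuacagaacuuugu
mmu-miR-148b-3p: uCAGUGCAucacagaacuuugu
mmu-miR-152-3p: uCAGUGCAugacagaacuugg
mmu-miR-148a-5p: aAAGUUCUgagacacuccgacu
The 3 members of the 3p arm have the same seed, and of 1679 mature mouse miRNAs in the reference these 3 alone carry it. Against mmu-miR-148a-3p, mmu-miR-148b-3p has the substitutions C9U and U10C (90.9% identity over 22 bases), and mmu-miR-152-3p has C9U, U10G and U20G (85.7% identity over 21 bases). Between mmu-miR-148b-3p and mmu-miR-152-3p the substitutions are C10G and U20G (90.5% identity). The annotation places Mir148b within Copz1 and Mir152 within Copz2, which encode related coat proteins of transport vesicles, and Mir148a within Gm38821.

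Each detected member was read by 2 probes of different length, each printed as 10 spots. The longer probe of each member is shown, since it gave most of the signal, with capitals at the bases that mismatch at least 1 other member.
mmu-miR-148a-3p, 20 bases, chr6:51219873-51219892 (mm9, minus strand): AcAaagttctgtAGtgcact
mmu-miR-148b-3p, 19 bases, chr15:103115619-103115637 (mm9, plus strand): AcAaagttctgtGAtgcac
mmu-miR-152-3p, 17 bases, chr11:96711757-96711773 (mm9, plus strand): cCaagttctgtCAtgca
The mmu-miR-148a-3p probe has 2 mismatches to mmu-miR-148b-3p and 4 to mmu-miR-152-3p. The mmu-miR-148b-3p probe has 2 to mmu-miR-148a-3p and 3 to mmu-miR-152-3p, and the mmu-miR-152-3p probe has 3 and 2 to the others, where a base past the end of the other miRNA counts as a mismatch. How much signal each probe takes from the other members was not tested.

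The total gene signal, in scanner units, adds up the background-subtracted fluorescence of the detected probes of a miRNA. In mmu-miR-148a-3p it was 289, 351 and 470 in the control retina pools 1, 2 and 3 and 341, 458 and 304 in the myopic retina, against 1104, 1235 and 305 for control sclera and 975, 867 and 726 for myopic sclera. Control sclera array 3 lay within the retina range, and all other sclera arrays were above it. That array was dim as a whole: the 75th percentile of its total gene signals over the 246 miRNAs detected on all arrays was 276, against 674 and 803 on the other control sclera arrays, 436 to 601 in the myopic sclera and 1023.9 to 1414 in the retina.

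In mmu-miR-152-3p the total gene signal was 69.1, 88.0 and 145 in the control retina, 73.3, 103 and 75.5 in the myopic retina, 1177, 1356 and 413 for control sclera, and 1137, 979.6 and 798 for myopic sclera. All 6 sclera arrays were above all 6 retina arrays, the dim one included. The opposite order was found in mmu-miR-148b-3p, with 177, 211 and 242 in the control retina and 208, 287 and 184 in the myopic retina, against 54.8, 73.9 and 15.2 for control sclera and 47.5, 37.4 and 35.4 for myopic sclera. Every retina array was above every sclera array, before any scaling.

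To compare arrays, a floor of 0.5 was set on the signals, the 12 arrays were quantile normalized, and log2 values of all 443 miRNAs detected on at least 1 array entered a single limma fit, which moderates the spread of each miRNA toward that of the others. A call needed a difference of 2-fold or more together with an adjusted p below 0.05.

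**Figure D1:**
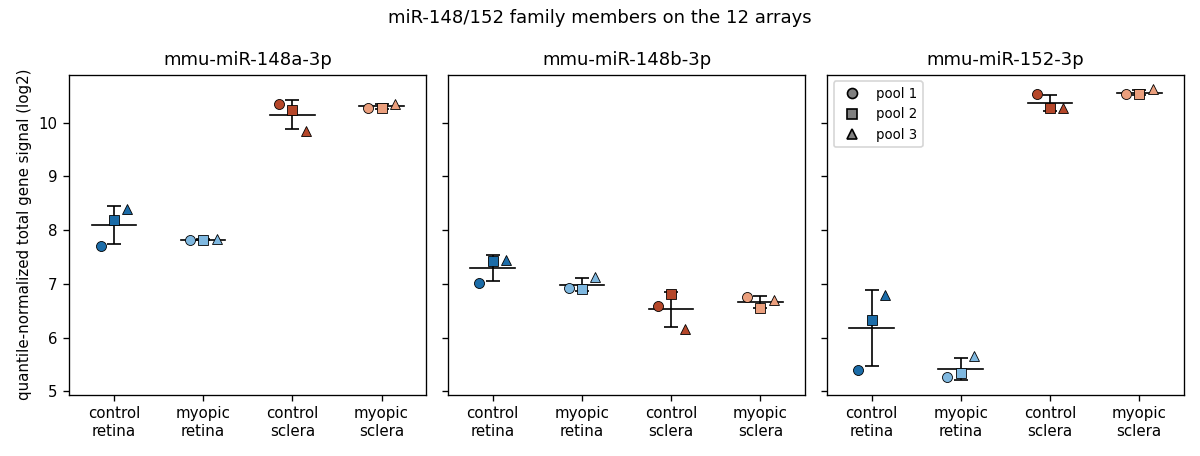
Quantile-normalized total gene signal (log2) of the 3 detected family members on the 12 arrays; points are pools, horizontal lines group means and bars the SD (n = 3). mmu-miR-148a-3p and mmu-miR-152-3p were higher in the sclera, mmu-miR-148b-3p was higher in the retina, and these directions held without normalization and with scaling to the 75th percentile.

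Of the family, mmu-miR-152-3p differed most between the tissues. On the log2 scale its quantile-normalized signal was 5.40, 6.32 and 6.80 in the control retina and 10.53, 10.28 and 10.28 in the control sclera. The mean was 6.17 ± 0.71 (SD, n = 3) against 10.37 ± 0.15, and the groups were far apart. The control retina was 18.3-fold lower, with a log2 fold change of -4.19 and a standard error of 0.30 (limma adjusted p = 1.6e-06), and within the slides the difference was -5.13, -3.96 and -3.48. In the myopic pools it was 5.26, 5.34 and 5.65 in the retina and 10.53, 10.53 and 10.62 in the sclera, and the retina was 35.4-fold lower, with a log2 fold change of -5.15 (adjusted p = 2.9e-07) and -5.27, -5.19 and -4.97 within the slides. The direction was the same with scaling to the 75th percentile (-4.22 and -4.73) and without normalization (-3.18 and -3.54). With normexp, a planned background correction that could not be fitted well on some arrays, the values were smaller, at -1.56 and -2.23. This correction also adds an offset of 50 to every spot, which draws log2 differences of dim miRNAs toward 0.

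mmu-miR-148a-3p had a smaller difference in the same direction. The normalized signal was 7.70, 8.19 and 8.39 in the control retina and 10.36, 10.24 and 9.84 in the control sclera. All retina pools were below all sclera pools, with means of 8.09 ± 0.35 and 10.15 ± 0.27 (SD, n = 3). The difference was 4.15-fold, or -2.05 on the log2 scale with a standard error of 0.19 (limma adjusted p = 9.3e-06), and -2.65, -2.06 and -1.45 within the slides. In the myopic pools the signal was 7.81, 7.81 and 7.83 in the retina and 10.28, 10.28 and 10.36 in the sclera, with a log2 fold change of -2.49 (adjusted p = 2.1e-06), or 5.61-fold, and -2.47, -2.47 and -2.53 within the slides. Scaling to the 75th percentile gave -2.08 and -2.42. Without normalization the values were -1.04 and -1.23 with the same direction, but the dim control sclera array 3 then overlapped the control retina and the adjusted p was 0.090 in the control pools.

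mmu-miR-148b-3p went the other way. Its normalized signal was 7.01, 7.42 and 7.45 in the control retina and 6.59, 6.82 and 6.16 in the control sclera. The means were 7.29 ± 0.24 and 6.52 ± 0.33 (SD, n = 3), and the retina pools were all above the sclera pools. The log2 fold change of 0.77 had a standard error of 0.19 and passed the test (limma adjusted p = 0.0062) but at 1.71-fold not the fold threshold, and within the slides it was 0.42, 0.60 and 1.29. In the myopic pools the signal was 6.92, 6.91 and 7.14 in the retina and 6.75, 6.55 and 6.70 in the sclera, still without overlap, and the log2 fold change was 0.32 (95% confidence interval -0.11 to 0.75, adjusted p = 0.16), with 0.17, 0.36 and 0.44 within the slides. The size depended on the scaling and the direction did not. The log2 fold change was 1.36 and 1.29 with scaling to the 75th percentile (adjusted p = 1.4e-04 and 1.8e-04) and 2.40 and 2.48 without normalization (adjusted p = 0.0023 and 0.0015), all past both thresholds. With the 75th percentile over all names it was 0.82 and 0.32 (limma adjusted p = 0.015 and 0.26), neither past the fold threshold.

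In the control pools, 2 of the 3 detected members were called by limma between retina and sclera, beside 50.6% of all 443 miRNAs, and in the myopic pools 2 of 3, beside 58.9%. Both called members were lower in the retina, as were 23.0% of all miRNAs in the control pools and 26.4% in the myopic pools. The groups did not overlap for 3 of 3 members in the control pools (58.9% of all miRNAs) and in the myopic pools (78.6%), and all 3 members separated the 6 retina from the 6 sclera arrays (55.1%). The member not called, mmu-miR-148b-3p, was higher in the retina, opposite in direction to the 2 called members that share its seed. After quantile normalization the median of the 246 miRNAs with detection on every array was itself shifted by -0.24 and -0.32 (log2) in the 2 comparisons, and by 0.13 and 0.39 with scaling to the 75th percentile and 1.17 and 1.58 without normalization. The split of all calls moved with it, from 122 higher and 102 lower in the control retina to 159 and 81 with the 75th percentile and 224 and 44 without normalization, and in the myopic pools from 144 and 117 to 196 and 82 and to 266 and 42. With the 75th percentile over all names the split was 123 and 113 in the control pools and 136 and 126 in the myopic pools. Among miRNAs detected on all 12 arrays, as the 3 members are, fitted alone, the calls were 45 higher and 83 lower in the control retina and 44 and 95 in the myopic retina.

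**Figure D2:**
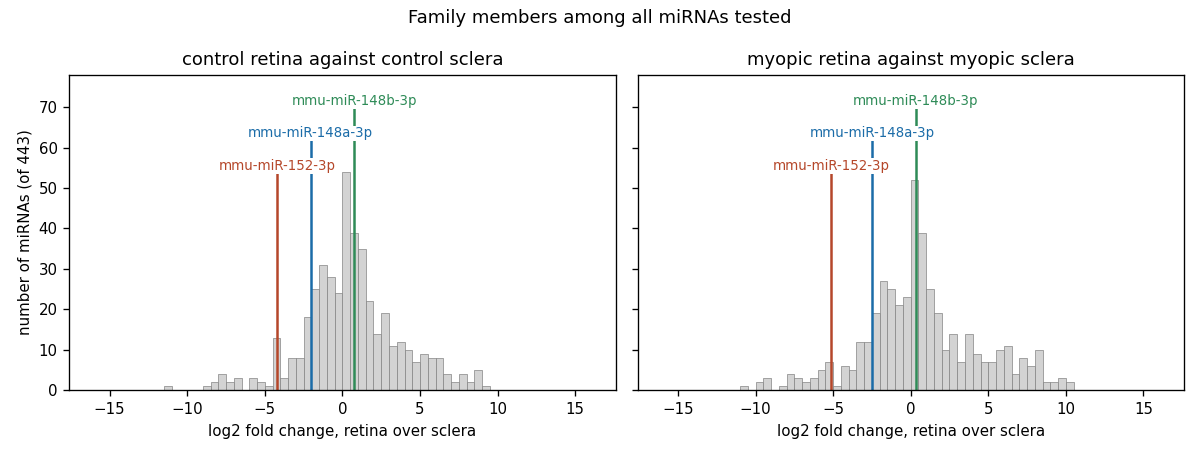
Number of miRNAs (of 443) by log2 fold change of the retina over the sclera, in the control pools (left) and the myopic pools (right), with the 3 family members as vertical lines whose heights carry no value. mmu-miR-152-3p (-4.19 and -5.15) and mmu-miR-148a-3p (-2.05 and -2.49) lie on the sclera side and mmu-miR-148b-3p (0.77 and 0.32) on the retina side, under each scaling; fold changes of miRNAs undetected in a tissue are set by the floor of 0.5.

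Differences between members within an array do not depend on the scaling of that array. They show unequal change only, and since probes differ in brightness their sign says nothing of which member is more abundant. The log2 total gene signal of mmu-miR-148a-3p minus that of mmu-miR-148b-3p ranged from 0.67 to 0.96 with a median of 0.72 on the 6 retina arrays, and from 4.06 to 4.54 with a median of 4.35 on the 6 sclera arrays. The spread within a tissue was small beside the gap. The means were 0.75 ± 0.10 and 4.33 ± 0.15 (SD, n = 6), a difference of -3.58 (exact permutation test, two-sided, p = 0.0022, adjusted p = 0.0065 over 9 such tests, no overlap).

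For mmu-miR-152-3p minus mmu-miR-148b-3p the range was -1.51 to -0.74 in the retina (median -1.32) and 4.20 to 4.76 in the sclera (median 4.54), a difference in means of -5.80. mmu-miR-152-3p minus mmu-miR-148a-3p ranged from -2.22 to -1.70 in the retina (median -2.04) and from 0.09 to 0.43 in the sclera (median 0.16), a difference of -2.22. Neither overlapped between the tissues, and each had an exact permutation p = 0.0022 and adjusted p = 0.0065, where 0.0022 is the smallest value that 6 against 6 arrays allow. Thus mmu-miR-152-3p and mmu-miR-148a-3p, both higher in the sclera, also differed from each other in the size of that difference. Any 2 of the 3 differences give the third, so they are not 3 separate results. Of all 443 single miRNAs, 55.1% separated the 6 retina from the 6 sclera arrays after quantile normalization. The share among other pairs of miRNAs was not computed. The permutation p values treat the 6 arrays of a tissue as independent, but the 4 arrays of a pool number, from both eyes and both tissues, share animals. The planned exact sign-flip test over 6 pairs (p = 0.031 for each) also counts the 2 eyes of the same animals separately. With both eyes of a pool number averaged, a choice made after seeing the data, all 3 pool numbers had the same direction for each difference, and the exact sign-flip test gave p = 0.25, the smallest it allows. The 3 pool numbers gave -3.64, -3.595 and -3.501 for mmu-miR-148a-3p minus mmu-miR-148b-3p.

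**Figure D3:**
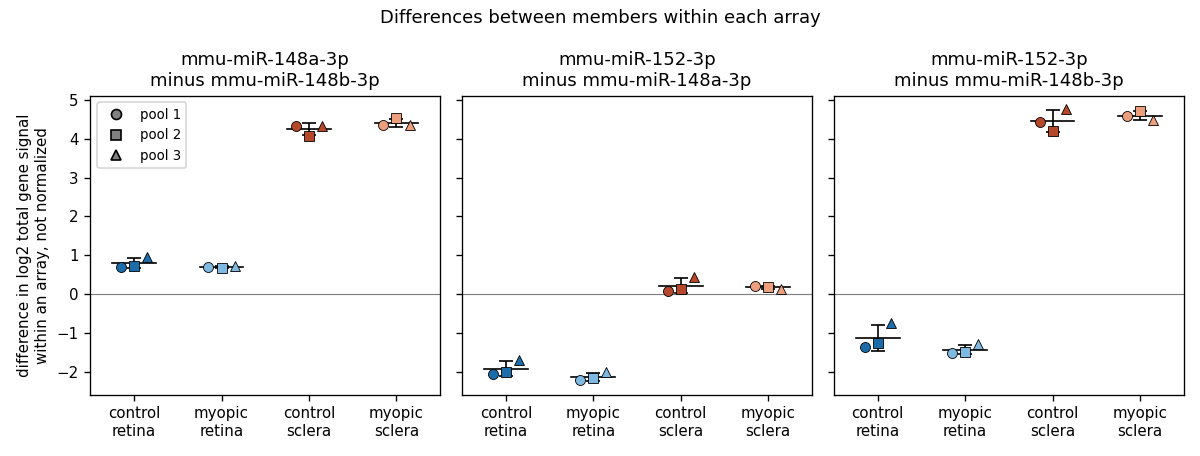
Difference in log2 total gene signal between 2 family members within each array, without normalization; points are pools, lines group means and bars the SD (n = 3). The 6 retina and the 6 sclera arrays do not overlap in any of the 3 differences, while control and myopic pools of a tissue lie close together.

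The 2 probes moved alike for mmu-miR-148a-3p and mmu-miR-152-3p. The longer probe gave 1.79 to 1.93 times the signal of the shorter on all 12 arrays for mmu-miR-148a-3p and 1.58 to 1.73 times for mmu-miR-152-3p. For mmu-miR-148b-3p the ratio was 8.78 to 9.90 on the retina arrays. On the sclera arrays its 18-base probe was detected on 1 of 6, so it is missing from most sclera sums and no tissue difference is given for it. The log2 difference between the 6 retina and the 6 sclera arrays, without normalization, was -1.16 and -1.13 for the 19- and 20-base probes of mmu-miR-148a-3p, 2.32 for the 19-base probe of mmu-miR-148b-3p, and -3.39 and -3.34 for the 16- and 17-base probes of mmu-miR-152-3p. With the longer probes alone, a choice made after seeing the data, the mean differences within an array between the tissues were -3.44, -2.22 and -5.66 for mmu-miR-148a-3p minus mmu-miR-148b-3p, mmu-miR-152-3p minus mmu-miR-148a-3p and mmu-miR-152-3p minus mmu-miR-148b-3p.

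**Figure D4:**
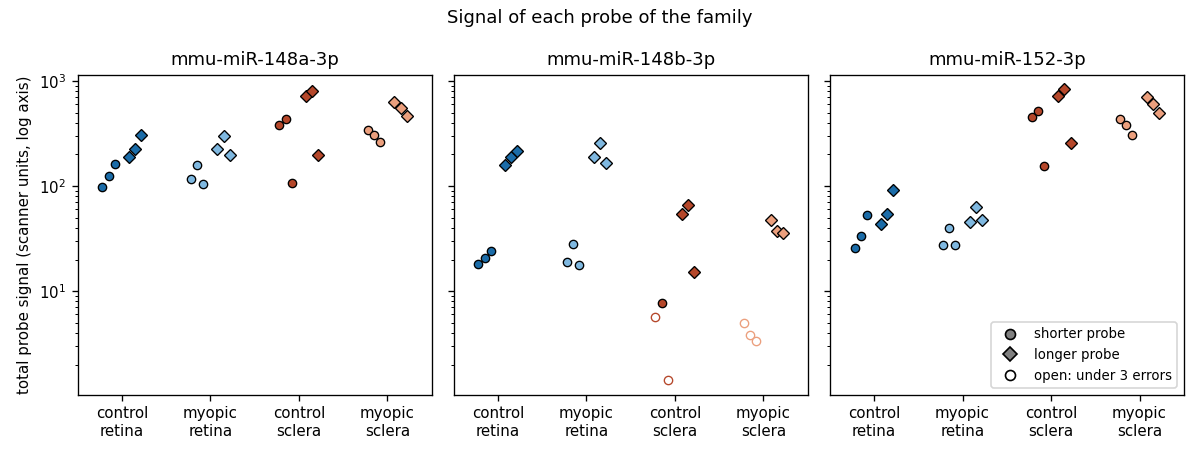
Total probe signal in scanner units (log axis, not normalized) of the shorter (circles) and longer probe (diamonds) of each detected member on each array; open symbols are signals under 3 times their error. Both probes of mmu-miR-148a-3p and of mmu-miR-152-3p show the same order of the tissues, the shorter probe of mmu-miR-148b-3p was under 3 errors on most sclera arrays, and the dim control sclera array 3 lies below the other sclera arrays for each member.

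mmu-miR-148a-5p, the other arm of the mmu-miR-148a precursor, was listed at a total gene signal of 0.1 on all 12 arrays, the value given to an undetected miRNA. The signal of its longest probe, of 16 bases, was -0.52 to -0.10 on the retina arrays and 0.36 to 1.81 on the sclera arrays, with errors of its 4 probes between 0.76 and 1.48. For this probe the sclera values were above the retina values, but all stayed under the detection limit of 3 errors. They are therefore not read as expression of this arm. The tissues overlapped for the other 3 probes, of 13, 14 and 15 bases, with -1.47 to -0.69 in the retina and -1.18 to -0.55 in the sclera for the shortest.

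Between the myopic and the control retina, limma called 0 of the 3 detected members, beside 0.226% of all miRNAs (1 of 443). The count over all miRNAs was unstable, with 122 calls without control retina 1, 13 without myopic retina 3 and 146 with array weights. At an unadjusted p under 0.05 there was 1 member, mmu-miR-152-3p, beside 29.3% of all miRNAs (130 of 443). The groups overlapped for every member, while 14.4% of all miRNAs did not overlap (64). The median of the 246 miRNAs was -0.21 in this comparison after quantile normalization and -0.02 with scaling to the 75th percentile, and values are to be read against that shift.

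mmu-miR-152-3p had 5.40, 6.32 and 6.80 in the control retina pools 1, 2 and 3 and 5.26, 5.34 and 5.65 in the myopic pools. Control pool 1 lay within the myopic range and the other 2 control pools above it. The log2 fold change of the myopic over the control retina was -0.76 (standard error 0.30, 95% confidence interval -1.43 to -0.08, adjusted p = 0.15), with -0.15, -0.98 and -1.15 in the 3 pairs. It was -0.32 with scaling to the 75th percentile (lower in 2 of 3 pairs) and -0.21 without normalization (lower in 1 of 3 pairs). With the 75th percentile over all names it was -0.67 (limma adjusted p = 0.23). The normexp correction gave -0.00055 as planned and -0.17 without spots below their background. Leaving out control retina 1 gave -1.16 (adjusted p = 0.0013), a call, while leaving out control retina 3 gave -0.43. With array weights the value was -1.01 (limma adjusted p = 2.2e-05), also a call. Control retina 1, 2 and 3 had weights of 0.079, 7.91 and 0.249, so the control mean then rested mostly on array 2. The call thus depended on which control retina arrays were used and how they were weighted.

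Some markers of other cell types rose with mmu-miR-152-3p from control retina pool 1 to 3, as did 140 of the 330 miRNAs detected on all control retina arrays (42.4%). All 3 detected family members rose in this order, also with scaling to the 75th percentile. Among them was mmu-miR-148b-3p, which was higher in the retina than in the sclera. Among the 3 miRNAs of surface epithelium and lens, the summed total gene signal, scaled to the 75th percentile, was 91.0, 1253 and 4370 in control retina pools 1, 2 and 3 and 544, 476 and 497 in the myopic retina. Most of it came from mmu-miR-184-3p, and mmu-miR-205-5p, an epithelial marker, was detected on control retina array 3 and no other retina array. The sum of the 4 skeletal muscle miRNAs was 216, 264 and 406 in the control retina and 290.1, 345 and 256 in the myopic retina. Of these 4, mmu-miR-206-3p had the opposite order in the control pools, with normalized log2 signals of 5.95, 4.84 and 4.28 (6.12, 6.72 and 6.11 in the myopic pools), while the other 3 rose from pool 1 to 3. The sum of the 5 miRNAs of fibroblasts and mesenchyme was 1866, 2059 and 2775 against 2109.9, 2204 and 2030.3, and 2 of them, mmu-miR-214-3p and mmu-miR-10b-5p, were undetected on all retina arrays. In the retina 93.1% to 98.0% of this sum was mmu-miR-21-5p, which was not called between control retina and sclera (log2 difference -0.46). Within this list mmu-miR-199a-3p, a marker of mesenchymal cells, had normalized log2 signals of 4.28, 5.57 and 7.24 in the control pools and 4.34, 4.42 and 4.91 in the myopic pools, so that the order of the control pools was that of mmu-miR-152-3p. Of the miRNAs of blood and leukocytes, 3 were detected on all control retina arrays and all 3 rose from pool 1 to 3 (2 of 3 with scaling to the 75th percentile). Their log2 fold changes in the myopic retina went both ways, with -1.29 for mmu-miR-223-3p (adjusted p = 0.13), -1.38 for mmu-miR-142-3p (adjusted p = 0.15) and 0.26 for mmu-miR-451 (adjusted p = 0.35). The summed signal of this list was 251, 279 and 371 in the control and 307, 393 and 360.1 in the myopic retina, of which 81.5% to 91.3% was mmu-miR-451. Of the miRNAs of retinal neurons and photoreceptors, 0 of 7 had this order with quantile normalization and 5 of 7 with scaling to the 75th percentile. The part of these cell types in the values of mmu-miR-152-3p was not tested.

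With quantile normalization the other members differed less in the retina. With normexp both differed more in size than mmu-miR-152-3p. Its added offset of 50 shrinks differences most where signals are low, and mmu-miR-152-3p had the lowest retina signals of the 3 members. mmu-miR-148a-3p and mmu-miR-148b-3p were then at -0.12 and 0.21 as planned, and at -0.26 and -0.21 without spots below their background. mmu-miR-148a-3p was at 7.70, 8.19 and 8.39 in the control and 7.81, 7.81 and 7.83 in the myopic pools, and its myopic values lay inside the control range. Its log2 fold change was -0.27 (standard error 0.19, 95% confidence interval -0.71 to 0.16, adjusted p = 0.37, lower in 2 of 3 pairs). It was -0.11 with scaling to the 75th percentile and -0.0033 without normalization, with 2 of 3 pairs higher in both. With the 75th percentile over all names it was -0.46 (limma adjusted p = 0.24). Leaving out 1 array moved it between -0.47 and -0.13, with a lowest limma adjusted p of 0.048. Over all settings the lowest limma adjusted p was 5.2e-04, and none passed the fold threshold. mmu-miR-148b-3p was at 7.01, 7.42 and 7.45 against 6.92, 6.91 and 7.14, with an overlap at control pool 1 and a log2 fold change of -0.31 (standard error 0.19, 95% confidence interval -0.74 to 0.12, adjusted p = 0.33, lower in 3 of 3 pairs). This became -0.012 with scaling to the 75th percentile and turned to 0.10 without normalization, with 2 of 3 pairs higher in both. With the 75th percentile over all names it was -0.37 (limma adjusted p = 0.28).

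**Figure D5:**
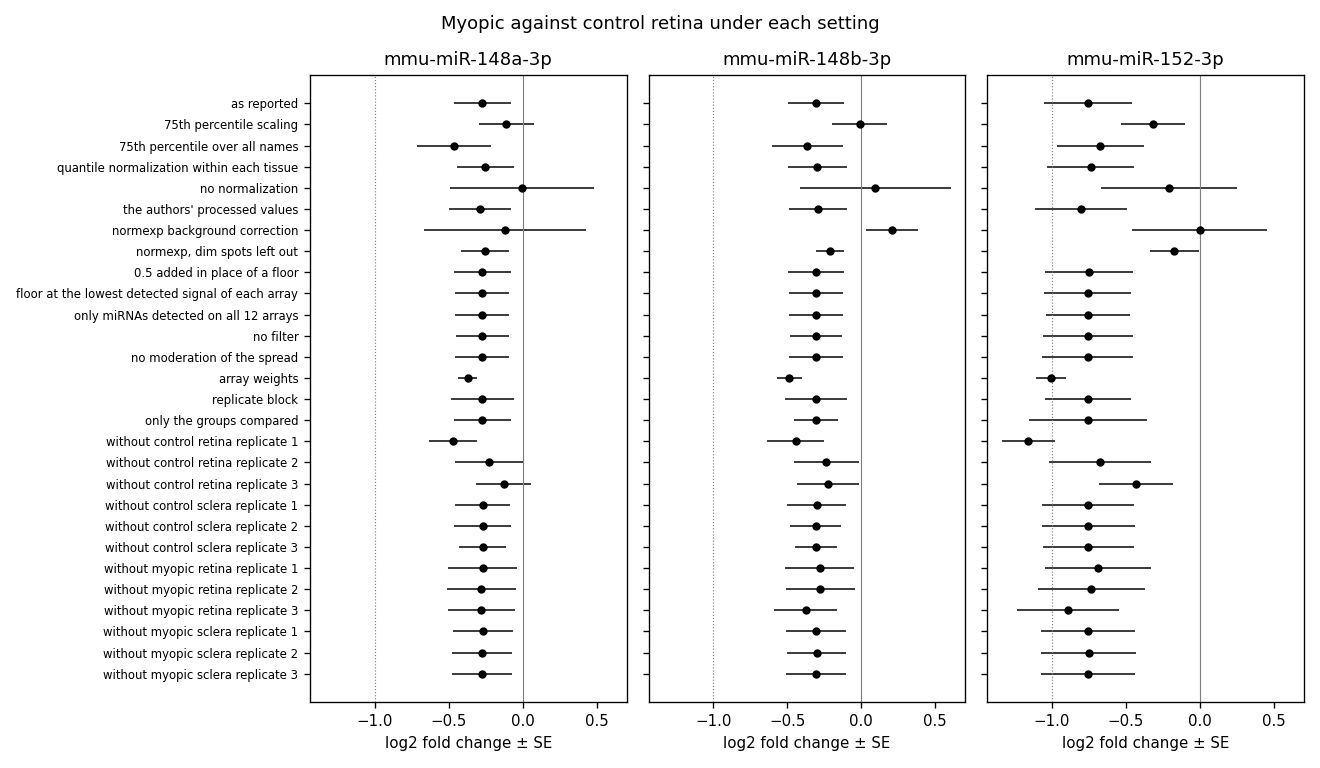
Log2 fold change of the myopic over the control retina (points) with its standard error (bars) for the 3 detected members under each setting of the processing; the solid line is 0 and the dotted line a fold change of 2. mmu-miR-152-3p passes the dotted line with array weights (-1.01) and without control retina 1 (-1.16), and mmu-miR-148b-3p turns above 0 without normalization (0.10) and with the normexp correction as planned (0.21).

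In the sclera, 0 of the 3 members and 0 of all 443 miRNAs (0%) were called by limma with form deprivation, and at an unadjusted p under 0.05 there were 0 members beside 2.93% of all miRNAs (13). Non-overlapping groups were found for 0 members and for 5.42% of all miRNAs (24). In mmu-miR-152-3p the control sclera pools had 10.53, 10.28 and 10.28 and the myopic pools 10.53, 10.53 and 10.62. Control pool 1 equalled 2 myopic pools, since quantile normalization gives equal values to equal ranks. The log2 fold change was 0.20 (standard error 0.30, 95% confidence interval -0.48 to 0.87), and with scaling to the 75th percentile it was 0.19 and the groups no longer overlapped.

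For mmu-miR-148a-3p the sclera pools had 10.36, 10.24 and 9.84 in the control and 10.28, 10.28 and 10.36 in the myopic group, with a log2 fold change of 0.16 (standard error 0.19, 95% confidence interval -0.27 to 0.59). mmu-miR-148b-3p had 6.59, 6.82 and 6.16 against 6.75, 6.55 and 6.70, with 0.14 (standard error 0.19, 95% confidence interval -0.29 to 0.57). For both, the lowest value was that of the dim control array 3, and leaving it out took mmu-miR-148a-3p to 0.0058 and turned mmu-miR-148b-3p to -0.04. All 3 members had an adjusted p of 1 in the sclera.

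The same fit tested, as an interaction, whether form deprivation moved the family differently in the tissues. By limma 0 of 3 members were called, beside 0.226% of all miRNAs (1 of 443), and at an unadjusted p under 0.05 there were 0 members beside 8.13% (36). The calls over all miRNAs rose to 112 without control retina 1 and to 156 with array weights. The change in the retina minus that in the sclera was -0.43 for mmu-miR-148a-3p (standard error 0.27, adjusted p = 0.40), -0.45 for mmu-miR-148b-3p (0.27, adjusted p = 0.39) and -0.95 for mmu-miR-152-3p (0.42, 95% confidence interval -1.91 to 0.0021, adjusted p = 0.38). Leaving out control retina 1 turned the last into a call at -1.35 (adjusted p = 0.0046), while it was -0.51 with scaling to the 75th percentile (adjusted p = 0.61) and -0.36 without normalization (adjusted p = 1.0). With these scalings mmu-miR-148a-3p was at -0.34 and -0.19 and mmu-miR-148b-3p at -0.065 and 0.09. With the 75th percentile over all names the values were -0.78 for mmu-miR-148a-3p, -0.50 for mmu-miR-148b-3p and -0.94 for mmu-miR-152-3p. Their limma adjusted p was 0.39, 0.41 and 0.39.

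The differences between members within an array were also compared between myopic and control pools. mmu-miR-148a-3p minus mmu-miR-148b-3p was 4.33, 4.06 and 4.33 on the control sclera arrays and 4.36, 4.54 and 4.36 on the myopic ones. All myopic arrays were above the control arrays, by 0.18 on average (exact permutation p = 0.10, the smallest that 3 against 3 allow, adjusted p = 0.23). Of the sclera sums, only that of control sclera 2 included the 18-base probe of mmu-miR-148b-3p. With the longer probes alone the difference was 0.11 (adjusted p = 0.36) and the groups overlapped, with 3.719, 3.598 and 3.708 in the control and 3.742, 3.903 and 3.718 in the myopic pools. mmu-miR-152-3p minus mmu-miR-148b-3p was -1.36, -1.26 and -0.74 in the control retina and -1.51, -1.48 and -1.29 in the myopic retina, which overlapped (difference -0.31, exact permutation p = 0.20, adjusted p = 0.30). Control retina array 3 was the highest. Paired by pool number, a choice made after seeing the data, it was lower in the myopic eye in 3 of 3 pairs (-0.15, -0.22 and -0.55), as was mmu-miR-152-3p minus mmu-miR-148a-3p (-0.15, -0.16 and -0.31). The exact sign-flip test over the 3 pairs gave p = 0.25 for each, the smallest it allows. In the other 4 unpaired tests the exact permutation p was 0.20 to 1.

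The labelled tissues were compared with miRNAs known to mark cell types, which also serve as a frame for the family. Of 7 miRNAs of retinal neurons and photoreceptors, among them mmu-miR-124-3p, limma called 7 higher in the retina in the control and in the myopic pools, with median log2 differences of 3.87 and 3.99. Of 5 miRNAs of fibroblasts and mesenchyme, 4 were called lower in the retina in both, with medians of -7.78 and -9.10. The 4 skeletal muscle miRNAs were all called lower in the retina in both comparisons (medians -4.27 and -5.20), as were 3 of 4 tested miRNAs of blood and leukocytes (-2.72 and -3.61) and 2 of 3 of surface epithelium and lens (-3.10 and -4.10). Of the 2 miRNAs of the pigmented epithelium 1 was called higher in the retina in both (0.80 and 1.34). The medians over all 443 miRNAs were 0.30 and 0.36, or 0.17 and 0.09 where a miRNA undetected in a whole group was put at its detection limit or, with no measurable fold, left out, which did not move the list medians.

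The neuronal markers were not absent from the sclera. Their summed total gene signal, scaled to the 75th percentile, was 15345.9, 15706.1 and 2883 on the control sclera arrays and 11257.8, 6223 and 13232 on the myopic sclera arrays, against 180311 to 224465 on the retina arrays. The dim control sclera array 3 had the least. The part of retinal RNA in the values of the sclera was not tested.

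Among 8 other miRNAs known to target DNA methyltransferase transcripts, the control retina was called higher for 5 and lower for 1, with a median log2 difference of 1.21, and the myopic retina higher for 3 and lower for 1, with a median of 0.62. Of all 443 miRNAs, 50.6% and 58.9% were called in these comparisons, 122 and 144 of them higher in the retina. The miRNA called lower was mmu-miR-126-3p, a miRNA of endothelial cells. mmu-miR-29c-3p, which targets DNA methyltransferases 3A and 3B as well as collagens, was at 13.76 ± 0.12 in the control retina and 10.89 ± 0.56 in the control sclera (log2, SD, n = 3), a direction opposite to mmu-miR-148a-3p and mmu-miR-152-3p. In the control pools mmu-miR-29b-3p was also called higher in the retina (log2 fold change 1.78). mmu-miR-29a-3p was nearly equal between the tissues and not called (0.17, limma adjusted p = 0.36). By limma 0 of the 8 and 0 of the 25 tested markers were called with form deprivation in either tissue or in the interaction, with 0, 1 and 0 of the 8 and 4, 2 and 2 of the 25 at an unadjusted p under 0.05 in the retina, the sclera and the interaction.

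The miRNAs with the most similar pattern were found by Pearson's correlation of the normalized log2 signal over the 12 arrays, among 243 others detected on all of them. The 12 arrays fall into 2 tissues, which carry most of any such correlation. mmu-miR-152-3p was closest to mmu-miR-199a-3p (0.998), mmu-miR-199a-5p (0.998), mmu-miR-199b-5p (0.998), mmu-miR-299b-5p (0.997) and mmu-miR-322-5p (0.996). In mmu-miR-199a-3p the normalized log2 signal was 5.69 ± 1.48 in the control retina, 4.56 ± 0.31 in the myopic retina, 13.59 in each control sclera pool and 13.66 ± 0.05 in the myopic sclera (SD, n = 3). mmu-miR-148a-3p was closest to mmu-miR-27a-3p (0.997), mmu-miR-322-5p (0.994), mmu-miR-27b-3p (0.994), mmu-miR-199b-5p (0.993) and mmu-miR-199a-3p (0.993). The correlation between mmu-miR-148a-3p and mmu-miR-152-3p was 0.995.

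mmu-miR-148b-3p had other neighbours: mmu-miR-381-3p (0.967), mmu-miR-154-3p (0.955), mmu-miR-324-5p (0.954), mmu-miR-34b-5p (0.954) and mmu-miR-335-5p (0.951). mmu-miR-381-3p was at 6.35 ± 0.24 in the control retina, 6.04 ± 0.23 in the myopic retina, 5.38 ± 0.34 in the control sclera and 5.60 ± 0.07 in the myopic sclera (log2, SD, n = 3), a small difference between the tissues like that of mmu-miR-148b-3p. Its correlation with the other family members was -0.67 for mmu-miR-148a-3p and -0.69 for mmu-miR-152-3p.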

How the data were processed

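The authors deposited the scanner output of 12 one-colour Agilent arrays, whose values are fluorescence intensity, background-subtracted and not normalized. Per the file headers it was made with Agilent Feature Extraction 11.0.1.1 and annotated on mm9; a miRNA is detected where a probe signal exceeds 3 times its error. The 0 or 1 flags for detection and outliers are other columns of the same deposited files. The authors also deposited log2 values, quantile normalized with Partek 6.6 per the submitters' processing notes, which had a correlation of 0.999 with those computed here over 437 shared miRNAs and a largest difference of 0.21 in the family.

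Total gene signals were set to at least 0.5, quantile normalized over 696 names and 12 arrays and log2-transformed. limma 3.58.1 in R 4.3.3 fitted the 4 groups together (8 residual degrees of freedom), tested on simulated data first, with two-sided p-values and Benjamini-Hochberg adjustment over 443 miRNAs. Scaling to the 75th percentile used the miRNAs detected on all arrays. A miRNA undetected on every array of a group was put, for the list medians, at each array's lowest signal above detection. Python 3.11.15, numpy 2.4.6, pandas 2.3.3 and matplotlib 3.10.9 were used for permutation tests and figures. The named miRNAs are the family, the 5 most correlated with each detected member, 8 that target DNA methyltransferases and 6 lists of markers. Members and lists were chosen with earlier results of these data known. List names were matched to the array's names, with mmu-miR-1-3p taken as mmu-miR-1a-3p, mmu-miR-451a as mmu-miR-451, and mmu-miR-486-5p not found.

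The labels give the same mouse identifiers in each group, so the pool numbers pair the samples, and they are also the slides. Over 246 miRNAs, the deviations from the group means of paired arrays correlated at 0.38, -0.46 and 0.59 in the retina and -0.14, -0.16 and -0.00 in the sclera. The number of arrays limits the precision.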

Additional observations from a re-analysis of the deposited data

How the results depend on the processing

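Of 396 alternative values for the fold changes of members, 378 kept their direction and their side of the threshold, as did 139 of 147 for differences within an array, and 221 of 264 counts stayed within 1.5 times. The tissue differences of mmu-miR-152-3p were among these under every setting run. Those of all 3 pairs within an array were too, except with both eyes of a pool number averaged (chosen after seeing the data), where the values were the same (-3.58, -2.22 and -5.80) but 3 pool numbers allow no p under 0.25. mmu-miR-148a-3p lost its call between control retina and sclera without normalization (-1.04) and with normexp as planned (-0.44, and -0.70 in the myopic pools). That correction could not be fitted well on 3 arrays with spots far below their local background: it gave 0 calls for the myopic against the control retina and for the interaction, 67 and 94 between the tissues and 1 family member in each. Without those spots, an alternative chosen after seeing the data, the numbers were 0, 0, 108 and 132. Calls in the myopic against the control retina (1) and in the interaction (1) became 2 and 0 with the deposited log2 values, 0 and 0 when the floor was each array's lowest detected signal, 0 and 0 with miRNAs detected on all arrays (128 and 139 between the tissues, from fewer miRNAs tested), and 146 and 156 with array weights, each with 1 family member, where the sclera had 1 call. The weights were estimated with an iteration that stopped early. Only the groups compared gave 0 in the retina. Leaving out 1 array gave 1 to 122 calls in the retina, 0 to 1 in the sclera and 0 to 112 for the interaction, and 0 to 1 family members in the retina and the interaction: 122 and 112 without control retina 1, 13 and 9 without myopic retina 3. The sclera had 1 call without control sclera 2, control sclera 3 or myopic sclera 1, and the interaction 2 without each of these and 0 without control retina 2, control sclera 1, myopic retina 1 or 2, or myopic sclera 2 or 3. The interaction had 0 calls with pool number as replicate block, and between the tissues there were then 224 calls (119 higher, 105 lower) and 262 (144 and 118). This pairing changed no call of a family member, and mmu-miR-152-3p was at -0.76 (adjusted p = 0.15) in the retina. Directions that turned were those of mmu-miR-148b-3p, in the retina to 0.10 without normalization and 0.21 with normexp as planned, in the interaction to 0.086 and 0.19, and in the sclera to -0.061 with array weights, -0.017 with normexp without those spots and -0.040 without control sclera 3 (up to 0.29 without control sclera 2); and within an array, with quantile-normalized values, mmu-miR-148a-3p minus mmu-miR-148b-3p in the retina (0.032, and 0.0015 with the deposited values) and mmu-miR-152-3p minus mmu-miR-148a-3p in the sclera (0.037, and -0.11 to 0.064 with 1 array left out), and mmu-miR-152-3p minus mmu-miR-148b-3p in the sclera with the deposited values (-0.00094). None of these passed a test. The cause of each was not tested. With 3 pools a group, the 95% confidence interval of mmu-miR-152-3p in the retina runs from -1.43 to -0.08.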
